A study of Mus musculus with 3 samples.

Results

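The 10 genes described here act in foreign-compound and aldehyde metabolism. They were chosen by name with earlier results of these data known, so counts of them beside all genes are descriptions. Among them are the cytochrome P450 genes Cyp2f2, Cyp4b1, Cyp1b1 and Cyp2b10 and the aldehyde dehydrogenases Aldh1a1 and Aldh3a1. The others are the carbonyl reductase Cbr2, the epoxide hydrolase Ephx1, the glucuronosyltransferase Ugt1a6a and the flavin monooxygenase Fmo5. Each matrix holds 31053 genes, and all 10 members are accounted for in what follows. Their transcripts were counted with 10x 3' droplet libraries of single cells from mouse bladder urothelium, the stratified lining that faces the urine. Cells were freed with trypsin from inside the bladder, clusters were held back by a strainer, and red cells were removed on a gradient, per the labels' protocols. There were 3 libraries, from wild-type mice, Lpar6 knockout mice (LPAR6 is a lysophosphatidic acid receptor) and Cab39l knockout mice (CAB39L is a scaffold protein of the kinase LKB1). Every library held the cells of 15 mice in a single pool, and the sources used here state no strain, age, sex or allele design. With 1 library per group there was no replicate, so no test was made. Differences are given as sizes, and intervals (exact, 95%) cover counting error only.

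Urothelial cells were barcodes with at least 10000 unique molecular identifiers (UMIs, counted molecules), at most 20% mitochondrial UMIs and at least 0.2% of UMIs from the uroplakin genes Upk1a, Upk1b, Upk2 and Upk3a. This left 2887 of 8085 wild-type barcodes, 4670 of 8293 in the Lpar6 knockout and 5171 of 9406 in the Cab39l knockout, 12728 of 25784 in all. Median depths were 23652, 27340 and 30904 UMIs per cell, and between 16 and 19 barcodes were shared by each pair of libraries. The targeted genes were lowest in their own knockouts, though no source used here places the deletions, so the 3' tags may lie outside them. Lpar6 had 13.6 CPM in wild type, 0 UMIs in its own knockout (at most 0.0290 CPM) and 12.1 CPM in the Cab39l knockout. Cab39l had 112, 94.03 and 31.6 CPM in that order. The wild-type library stood apart from both knockouts. Its median mitochondrial share was 8.68% against 6.25% and 6.12%, and the median gene lay 0.34 (Lpar6) and 0.31 (Cab39l) lower on the log2 scale in the knockouts. Genes with transcripts of about the length of Cbr2 lay above that median in both knockouts, and genes of about the length of Fmo5 below it. Comparisons with wild type are therefore given relative to the median gene, and against genes of like length where that changed the call. CPM are the summed cells' UMIs scaled to a common total. Since a 3' tag counts a molecule once whatever its length, levels were not divided by length.

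Cytochrome P450 enzymes insert oxygen into lipophilic compounds, drugs and environmental chemicals, and in doing so can form reactive epoxides and aldehydes. Flavin monooxygenases oxidise sulphur- and nitrogen-containing compounds. Epoxide hydrolases, aldehyde dehydrogenases and carbonyl reductases turn reactive epoxides, aldehydes and ketones into diols, acids and alcohols, and glucuronosyltransferases attach a sugar acid that makes products water-soluble. The urothelium is in contact with such products in urine, and it can itself activate bladder carcinogens such as aromatic amines. It renews from basal cells, which carry Krt5, through intermediate cells to umbrella cells, which carry Krt20 and the most uroplakin.

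RefSeq promoter windows (build GRCm38.p6, 250 bases before and 50 after each start) were found for 9 of the 10 genes, not for Aldh3a1. They are shown up to where a GENCODE exon begins or the start is reached, for Cyp2f2, Cbr2 and Aldh1a1, whose levels were all higher toward the Krt5-high end. The downstream Aldh1a1 start lies inside the span of the gene. Sequences run 5' to 3' on the gene's strand, and capitals mark a match, on either strand, to any of 7 searched motifs.
Cyp2f2, chr7:27119705-27119908, plus strand: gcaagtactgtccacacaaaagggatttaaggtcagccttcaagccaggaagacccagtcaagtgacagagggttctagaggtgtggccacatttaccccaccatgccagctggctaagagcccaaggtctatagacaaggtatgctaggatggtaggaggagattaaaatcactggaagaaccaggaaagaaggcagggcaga
Cbr2, chr11:120732115-120732271, minus strand: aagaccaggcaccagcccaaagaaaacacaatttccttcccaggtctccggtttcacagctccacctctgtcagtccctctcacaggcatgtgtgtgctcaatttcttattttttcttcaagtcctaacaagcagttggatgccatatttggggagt
Aldh1a1, upstream start, chr19:20492333-20492582, plus strand: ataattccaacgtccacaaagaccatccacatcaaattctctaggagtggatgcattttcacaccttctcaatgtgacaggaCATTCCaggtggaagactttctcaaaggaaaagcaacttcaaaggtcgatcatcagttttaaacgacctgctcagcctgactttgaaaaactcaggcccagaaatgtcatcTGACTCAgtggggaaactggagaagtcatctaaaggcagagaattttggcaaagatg
Aldh1a1, downstream start, chr19:20601718-20601960, plus strand: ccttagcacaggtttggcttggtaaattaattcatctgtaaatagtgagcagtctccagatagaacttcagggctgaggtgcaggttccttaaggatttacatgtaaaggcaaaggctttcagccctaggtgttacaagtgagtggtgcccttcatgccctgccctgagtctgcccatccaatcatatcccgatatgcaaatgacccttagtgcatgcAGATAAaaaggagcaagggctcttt
All 300 bases of a window were searched on both strands, and the share of 32851 windows of that length with a match is given for each motif. The xenobiotic response core, written TNGCGTG, was in 5.07%. The antioxidant response core, written TGACNNNGC, was in 12.4%. The AP-1 motif was TGANTCA (7.81%). The GATA motif was AGATAA (11.2%). The FOX motif was TGTTTAC (3.65%). The TEAD motif was GGAATG (14.7%). The TATA box was TATAAA (13.6%). The Cyp2f2, Cbr2 and Cyp1b1 windows held none of these letters. The upstream Aldh1a1 start had an AP-1 match 57 bases before the start and a TEAD match on the minus strand at 168, and the downstream start had a GATA match at 32. Cyp4b1 and Ugt1a6a had an AP-1 match at 169 and 124, Cyp2b10 a TEAD match at 146, and Ephx1 and Fmo5 a TATA box match at 214 and 195 (minus strand in Fmo5). These distances are from the RefSeq start. In GENCODE the Fmo5 match and the whole Ephx1 window lie inside the spans of their genes.

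The 10 genes spanned from 0 UMIs to a rank among the most abundant transcripts of the cell, in nearly the same order in all 3 libraries. Fmo5, an atypical flavin monooxygenase known to work as a Baeyer-Villiger oxidase, led at 3357 CPM (3344 to 3370) in wild type, 3017 (3007 to 3026) in the Lpar6 knockout and 3056 (3048 to 3065) in the Cab39l knockout. This put it at rank 54, 80 and 79 of all genes, and every urothelial cell of each library held its UMIs. Cbr2, a mitochondrial tetrameric carbonyl reductase best known from lung, stood at 183, 137 and 184 CPM. The intervals of wild type and the Cab39l knockout overlapped (180 to 186 and 182 to 186), and the Lpar6 knockout lay below them (135 to 139).

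Aldh3a1, which oxidises aromatic and medium-chain aldehydes and is a major protein of the cornea, had 133, 77.8 and 128 CPM in wild type, the Lpar6 knockout and the Cab39l knockout. Aldh1a1, a retinal dehydrogenase that makes retinoic acid, had 18.5 (17.6 to 19.5), 10.55 (9.99 to 11.1) and 13.8 CPM (13.2 to 14.4), with no overlap of the intervals. Ephx1, the microsomal epoxide hydrolase, varied least among the members below Fmo5, at 59.3, 46.0 and 54.5 CPM. Ugt1a6a, which conjugates phenols, had 39.6 CPM (38.2 to 41.0) in wild type and was level between the knockouts at 20.4 (19.6 to 21.2) and 20.1 (19.4 to 20.8).

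Among the P450 genes, Cyp2f2, the naphthalene-activating enzyme of airway club cells, had 962, 554 and 1768 UMIs, or 12.6 CPM (11.8 to 13.4), 4.35 (3.996 to 4.73) and 11.2 (10.7 to 11.7). The Lpar6 knockout was lowest. Cyp1b1, an oxidase of polycyclic hydrocarbons and estrogens, had 6.82 CPM (6.25 to 7.43), 5.32 (4.92 to 5.73) and 3.14 (2.87 to 3.43), with the Cab39l knockout lowest. Cyp2b10, the phenobarbital-inducible P450 of liver, gave 1, 2 and 2 UMIs, and Cyp4b1 gave none in the urothelial cells, against 2, 2 and 1 UMIs in all barcodes of a library. Cyp4b1 is known for activating aromatic amines in bladder and lung, and a count of 0 allows up to 0.0484, 0.0290 and 0.0234 CPM here. These 2 genes were too low to measure here and enter no comparison, which leaves 8 of the 10 (at least 2 CPM on the higher side).

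**Figure D1:**
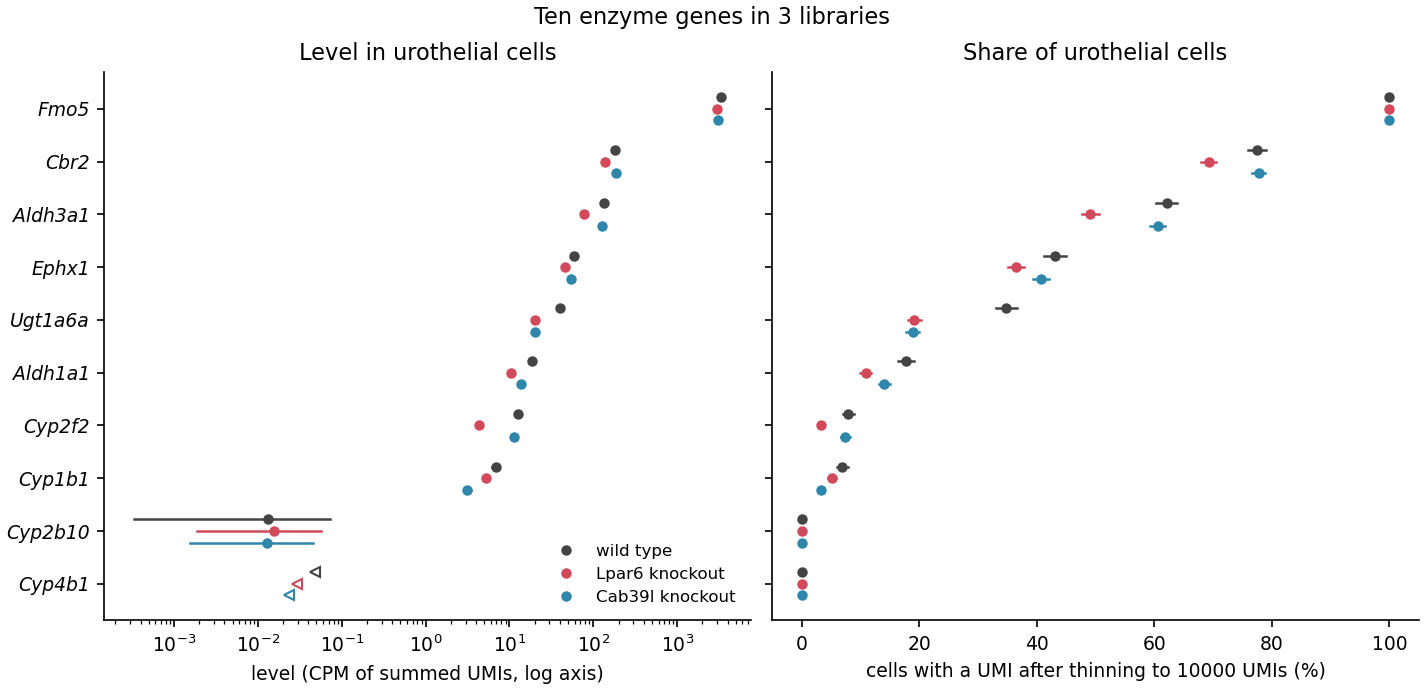
Level (left, CPM on a log axis) and share of urothelial cells with a UMI after thinning every cell to 10000 UMIs (right, %) of the 10 genes in 3 libraries. Points are the pooled value of a library, lines exact 95% intervals, and open triangles the upper limit where 0 UMIs were seen. Fmo5 was between 3017 and 3357 CPM and in every cell or nearly so, while Cyp2b10 and Cyp4b1 were at or next to 0.

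Shares of cells are compared after each cell was thinned to 10000 UMIs. Cbr2 was then seen in 77.6, 69.3 and 77.7% of cells (93.7, 91.5 and 95.4% unthinned) and Aldh3a1 in 62.1, 49.1 and 60.5% (81.7, 72.9 and 82.9% unthinned). Ephx1 was found in 43.1, 36.4 and 40.7% and Ugt1a6a in 34.8, 19.1 and 18.9%. Aldh1a1 was found in 17.7, 10.9 and 14.1%, Cyp2f2 in 7.90, 3.25 and 7.39% and Cyp1b1 in 6.86, 5.14 and 3.33%. The shares keep the order of libraries seen in the levels.

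Cyp2f2 was held by few cells at a high number of molecules. The variance of its thinned UMIs was 3.88, 3.73 and 2.75 times its mean (the Fano factor, near 1 for random counting), where genes of like level had medians of 1.02, 1.01 and 1.01. Only 10 of 2626, 3 of 2117 and 8 of 2574 such genes had a higher value. In wild type 2659 cells had no Cyp2f2 UMI after thinning, 144 had 1, and 3 had 10 or more. For Cyp1b1, which was lower than Cyp2f2 in wild type and the Cab39l knockout and higher in the Lpar6 knockout, the Fano factors were 1.13, 1.03 and 1.05. Aldh3a1 (2.19, 1.76 and 2.36) and Cbr2 (1.97, 1.80 and 1.93) had a higher value than at least 97.4% of genes of like level. Fmo5 had 3.65, 2.33 and 2.58, where genes of its level had medians of 4.75, 2.10 and 1.88.

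Part of the counting is uncertain between near copies. Of the Ugt1a6a transcript, 94.5% of bases and all of the last 500 are shared with 8 other Ugt1a genes that are spliced to the same final exons, so 3' tags cannot place a molecule in 1 of them. Summed over the 9 Ugt1a genes of the matrices, the level was 65.9, 36.5 and 33.1 CPM, so the summed genes were also lower in both knockouts than in wild type. Cbr2 has a look-alike (Gm11771, 98.9% identical over 268 bases). So does Cyp4b1 (Cyp4b1-ps2, 93.9% over 181 bases), and the 3' end of Cyp2b10 is 83.4% identical to Cyp2b9 over 513 aligned bases. The part of such copies in the low counts of Cyp4b1 and Cyp2b10 was not tested. The nearest copy of Aldh1a1, Aldh1a7, is 79.9% identical over 513 aligned bases of the 3' end, and was counted at 49.2, 43.1 and 48.1 CPM. Cyp2f2 overlaps the antisense gene Gm15883 and Ugt1a6a overlaps Gm20528, and no source used here says whether the counting used strand.

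In the GENCODE vM21 annotation (GRCm38) the 8 measurable genes lie on 6 chromosomes. Cyp2f2 (ENSMUSG00000052974) is at chr7:27119909-27133660 on the plus strand with 10 exons, Cyp1b1 at chr17:79701537-79715061 on the minus strand with 3 exons, and Fmo5 at chr3:97628804-97655282 on the plus strand with 9 exons. Aldh1a1 is at chr19:20492715-20643465 on the plus strand with 16 exons. Aldh3a1 (chr11:61207537-61218421, plus strand, 11 exons) and Cbr2 (chr11:120729489-120732114, minus strand, 8 exons) share a chromosome, as do Ephx1 (chr1:180976210-181020904, minus strand, 9 exons) and Ugt1a6a (chr1:88134809-88218997, plus strand, 6 exons). Fmo5 and Cyp1b1 have long transcripts (5197 and 5128 bases) and Cbr2 a short one (1110 bases), and length moved with the differences from wild type.

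Along the Krt5 axis the 2 aldehyde dehydrogenases, Cbr2 and Cyp2f2 lay toward the Krt5-high end, Ephx1 was flat and Fmo5 lay toward the Krt5-low end. Every cell was placed by its Krt5 UMIs after thinning, in bins of 0 (Krt5-low), 1 to 2, 3 to 5 and 6 or more (Krt5-high). In wild type these held 443, 989, 920 and 535 cells, in the Lpar6 knockout 1296, 1908, 1165 and 301, and in the Cab39l knockout 719, 1608, 1754 and 1090. The Krt5-high end thus held 18.5, 6.45 and 21.1% of urothelial cells. Other markers ran as the axis implies, but over unlike spans. Krt15 in wild type was 349 CPM at the Krt5-low and 2505 CPM at the Krt5-high end, and Upk2 was 1168 and 509 CPM. Trp63 (138 and 177 CPM), Itga6 (45.8 and 56.8) and the umbrella gene Krt20 (62.4 and 49.6) differed much less between these ends. Krt14 and Krt17, also taken here as basal markers, together had 1 UMI in the urothelial cells of the 3 libraries. Col17a1, another of these basal markers, had 0.525, 0.133 and 0.247 CPM. Median depth was lower toward the Krt5-high end (27306 to 20149 UMIs in wild type, 28183 to 23581 in the Lpar6 knockout, 34608 to 24960 in the Cab39l knockout), and the median mitochondrial share in wild type went from 9.68 to 6.81%. The part of depth and mitochondrial share in the differences was not tested.

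Aldh3a1 had 71.4, 106, 151 and 224 CPM over the 4 bins in wild type, 55.3, 72.7, 99.2 and 146 in the Lpar6 knockout, and 68.1, 102, 137 and 209 in the Cab39l knockout. It was higher at each step in all 3 libraries, and 3.14-fold (2.91 to 3.38), 2.63-fold (2.44 to 2.84) and 3.07-fold (2.91 to 3.25) higher at the Krt5-high end. Cyp2f2 had the steepest course. It went from 5.57 to 25.9 CPM in wild type, from 3.81 to 13.3 in the Lpar6 knockout and from 6.01 to 22.3 in the Cab39l knockout, which is 4.65-fold (3.59 to 6.09), 3.49-fold (2.65 to 4.57) and 3.71-fold (3.10 to 4.46). In the Lpar6 knockout it was not higher at each step (3.25 CPM in the second bin).

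Aldh1a1 was 2.48-fold (2.06 to 3.01), 2.09-fold (1.69 to 2.58) and 2.14-fold (1.82 to 2.51) higher at the Krt5-high end, and higher at each step everywhere. Its intervals in the Krt5-low and the next bin overlapped in wild type and the Lpar6 knockout. Cbr2 was also higher at each step of each library, with a smaller span, 1.90-fold (1.79 to 2.02), 1.504-fold (1.41 to 1.60) and 1.67-fold (1.60 to 1.74). Ugt1a6a was 1.41-, 1.59- and 1.45-fold higher, again at each step of each library. Its intervals in neighbouring bins above the Krt5-low end overlapped in each library. Overlap alone does not place those steps within counting error, and no interval was computed for their ratios.

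Ephx1 differed by less than its counting error between the ends of the axis, at ratios of 1.003 (0.90 to 1.12), 0.98 (0.86 to 1.11) and 1.02 (0.95 to 1.10). Cyp1b1 was 1.06-fold (0.78 to 1.45) in wild type, 1.51-fold (1.05 to 2.12) in the Lpar6 knockout and 1.49-fold (1.11 to 2.02) in the Cab39l knockout. Fmo5 was lower at every step of every library, from 3771 to 2790 CPM in wild type, 3039 to 2827 in the Lpar6 knockout and 3290 to 2761 in the Cab39l knockout. In the Lpar6 knockout the bins below the Krt5-high end had overlapping intervals (3039, 3023 and 3021 CPM). Wild type was highest at the Krt5-low end. At the Krt5-high end the intervals of the Lpar6 knockout (2787 to 2867) and wild type (2760 to 2820) overlapped.

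Relative to the median gene, at least 2-fold higher at the Krt5-high end were 3 of 8 members in wild type (Cyp2f2, Aldh3a1 and Aldh1a1), 2 of 8 in the Lpar6 knockout (Cyp2f2 and Aldh3a1) and 3 of 8 in the Cab39l knockout, against 0.614, 0.374 and 0.261% of all genes with at least 2 CPM. None was 2-fold lower, against 1.01, 0.422 and 0.666% of all genes. Since the members were chosen with earlier results of these data known, these counts are descriptions. The members' median relative log2 was 0.74, 0.59 and 0.65, beside 0.00, 0.01 and 0.01 over all genes. Just outside the 2-fold rule were Aldh1a1 in the Lpar6 knockout (0.96) and Cbr2 in wild type (0.96), and just inside it Aldh1a1 in the Cab39l knockout (1.04). The Aldh1a1 call was lost in 6 of 14 alternatives in the Cab39l knockout (down to 0.77) and in 2 of 14 in wild type (down to 0.70). The call of Aldh3a1 depended on how the ends were drawn. With the top and bottom 25% of cells ranked by 8 other basal genes in place of Krt5, Cyp2f2 was the only member to pass in each library (1.26, 1.299 and 1.68), and Aldh3a1 had 0.35, 0.60 and 0.74. Of these 8 genes, Krt14 and Krt17 had 0 or 1 UMI in a library. Trp63 alone gave 155 of their summed 318 CPM in wild type. The Cyp2f2 call in the Lpar6 knockout was lost in 3 of 13 alternatives (down to 0.82). Without the cells holding a Cyp2f2 UMI, 2 of 7 members passed in each library, Aldh3a1 and Aldh1a1, the second of them just past the rule in the Lpar6 knockout (1.01). The share of all genes was not counted under these alternatives.

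**Figure D2:**
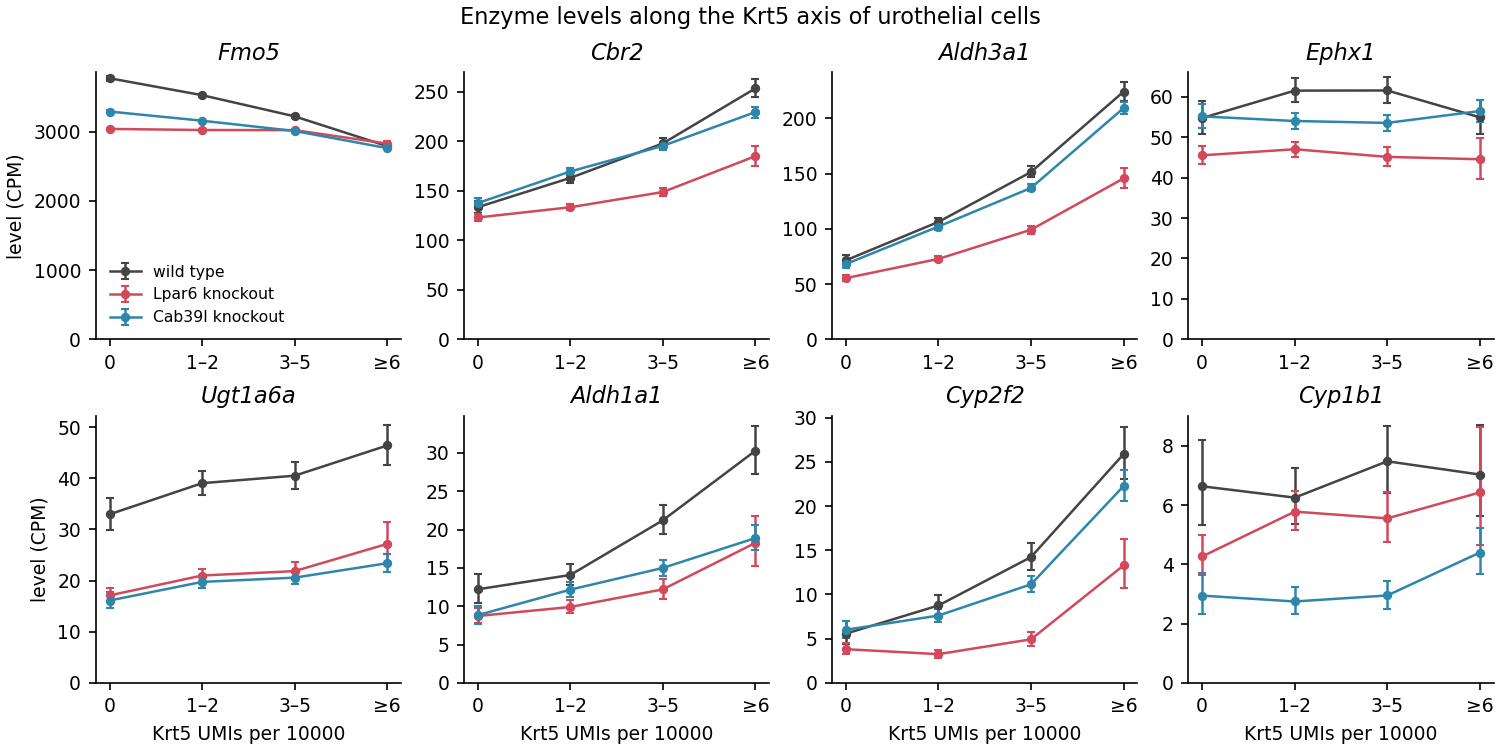
Level (CPM, axes from 0) of the 8 measurable genes in urothelial cells binned by Krt5 UMIs per 10000 UMIs, for 3 libraries; bars are exact 95% Poisson intervals. Aldh3a1, Cbr2, Aldh1a1 and Ugt1a6a were higher at each step in all 3 libraries, Fmo5 lower at each step, and Ephx1 flat. For Aldh1a1, Ugt1a6a and Fmo5 the intervals of some neighbouring bins overlapped.

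Cells rich in Cyp2f2 were also rich in Aldh3a1, Cbr2 and Aldh1a1 in all 3 libraries, and for Aldh3a1 in each of the 4 Krt5 bins. Cells with at least 2 thinned Cyp2f2 UMIs numbered 84 in wild type (2.91%, 2.33 to 3.59), 59 in the Lpar6 knockout (1.26%, 0.963 to 1.63) and 170 in the Cab39l knockout (3.29%, 2.82 to 3.81). They made up 1.81% of the Krt5-low and 5.05% of the Krt5-high cells in wild type, 1.23 and 2.99% in the Lpar6 knockout, and 1.53 and 6.42% in the Cab39l knockout. They were set against cells with no Cyp2f2 UMI (2659, 4518 and 4789). The cells were chosen by Cyp2f2, so the following is a description.

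Aldh3a1 stood at 296 against 126 CPM in wild type, 240 against 75.1 in the Lpar6 knockout and 323 against 119 in the Cab39l knockout (2.35-, 3.20- and 2.70-fold). Cbr2 stood at 374 against 174, 478 against 132 and 412 against 175 CPM (2.14-, 3.61- and 2.36-fold). For Aldh1a1 the levels were 42.5 against 17.4, 47.1 against 10.1 and 30.4 against 13.1 CPM (2.45-, 4.65- and 2.33-fold). All 9 intervals lie above 1. Among wild-type cells with no Krt5 UMI, only 8 of which were Cyp2f2-bearing, Aldh3a1 was 3.60-fold (2.59 to 4.89) and Cbr2 3.39-fold (2.65 to 4.28) higher in them. At the Krt5-high end the same ratios were 1.47 (1.26 to 1.71) and 1.68 (1.46 to 1.92). In the Lpar6 knockout the Cbr2 ratio at that end, 1.41 (0.97 to 1.99), was within counting error of 1.

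Ephx1 differed little, at 1.199-fold (0.997 to 1.43), 1.18-fold (0.89 to 1.52) and 1.27-fold (1.12 to 1.44). Ugt1a6a was 1.26-, 1.55- and 1.56-fold higher. Cyp1b1 was 1.91-fold (1.18 to 2.92) higher in wild type and 2.43-fold (1.58 to 3.58) in the Cab39l knockout, but 1.23-fold (0.49 to 2.56) in the Lpar6 knockout. Fmo5 was lower, at 0.71, 0.75 and 0.75 of the level in cells without Cyp2f2, as were Upk2 (0.48, 0.49 and 0.58) and Upk3a (0.64, 0.50 and 0.53). Krt15, a keratin of basal and intermediate cells, was 3.14-, 13.2- and 3.42-fold higher in the bearing cells, whereas Krt5 was 1.51-, 1.71- and 1.49-fold higher and Trp63 1.09-, 1.14- and 1.38-fold.

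The genes that stood highest in Cyp2f2-bearing cells of all 3 libraries, chosen after their values were seen, were led by Krt4, Gsdmc2, Ly6a, Krt15, Car8, Tpm2 and the aldehyde oxidase Aox3, with Aldh3a1 in place 8. On log2 of (CPM + 5), Krt4 differed by 2.07, 4.04 and 2.35 and Aox3 by 1.75, 1.84 and 1.46. The lowest were Rgs5 (-2.18, -1.82 and -2.46) and Hbb-bs, a haemoglobin gene (-1.47, -2.47 and -1.60). Bearing cells were shallower than those without Cyp2f2, at medians of 18576 against 24003, 15163 against 27464 and 18648 against 31436 UMIs, although thinning set all cells to the same number when they were chosen. The leukocyte gene Cd74 was higher in the wild-type bearing cells (62.4 against 9.52 CPM), not in those of the knockouts (0.924 against 1.77 and 2.42 against 4.63 CPM). Ptprc, the defining leukocyte gene, was at 2 UMIs in the wild-type bearing cells. Of the genes of male accessory glands, Svs5 was higher in the Cab39l knockout's bearing cells (272 against 33.7 CPM), while Sbp (14.5 against 99.3 CPM) and Pbsn (1.62 against 4.16 CPM) were lower. The part of depth and of these genes in the differences was not tested.

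**Figure D3:**
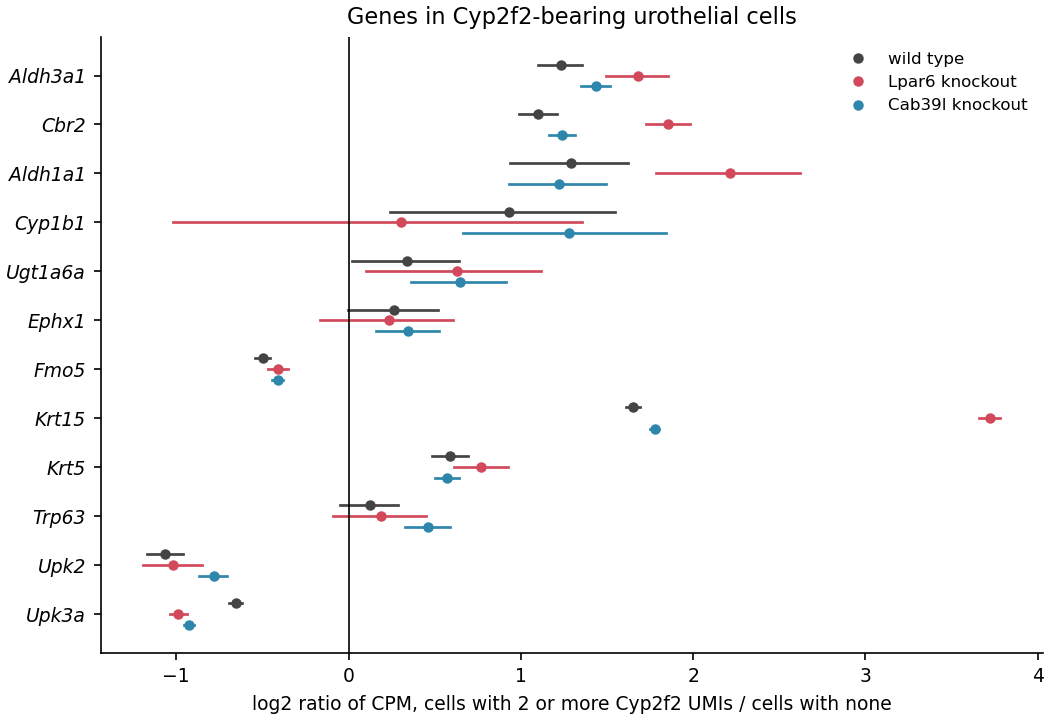
Log2 ratio of CPM between urothelial cells with 2 or more Cyp2f2 UMIs (after thinning) and cells with none, for 7 members and 5 marker genes in 3 libraries; lines are exact 95% intervals and the vertical line is no difference. Aldh3a1, Cbr2 and Aldh1a1 lie right of the line in each library, and Fmo5, Upk2 and Upk3a left of it.

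Against wild type, the Lpar6 knockout had less Cyp2f2 and, at the edge of the rule, less Ugt1a6a. Cyp2f2 had 2.90-fold (2.61 to 3.23) fewer CPM. Its relative log2, on (CPM + 1) with the median gene taken off, was -1.01. Without the pseudocount the interval relative to the median gene was -1.35 to -1.04. Relative values throughout use the pseudocount of 1 CPM, which draws low genes toward 0, and their intervals do not. Ugt1a6a had 1.94-fold (1.84 to 2.05) fewer CPM and a relative log2 of -0.59. Just outside the 1.5-fold rule were Aldh3a1 (1.71-fold fewer CPM, relative -0.42) and Aldh1a1 (1.76-fold, -0.42). Cbr2 (-0.08), Ephx1 (-0.02), Cyp1b1 (0.03) and Fmo5 (0.18) lay near the median gene. So 2 of 8 members were at least 1.5-fold lower and none higher, beside 5.01% and 9.39% of all 10632 genes with at least 2 CPM. The members' median was -0.25, and -0.03 over all genes. The call of Ugt1a6a was lost in 7 of 14 alternatives (range -0.93 to -0.50), that of Cyp2f2 in none of 13 (range -1.35 to -0.66). Against genes of like transcript length Aldh3a1 (-0.74) and Cbr2 (-0.61) passed as well, which makes 4 of 8 lower. The share of all genes lower by that measure was not counted, so the 5.01% is not its background.

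The smaller Krt5-high end of the Lpar6 knockout moved with the Cyp2f2 value, and its part in the difference was not tested. Cyp2f2 had 3.81 against 5.57 CPM in cells with no Krt5 UMI, 3.25 against 8.76 with 1 to 2, 4.92 against 14.2 with 3 to 5, and 13.3 against 25.9 at the Krt5-high end. These are 1.46-fold (1.09 to 1.95), 2.70-fold (2.21 to 3.30), 2.89-fold (2.38 to 3.53) and 1.95-fold (1.54 to 2.49) fewer CPM. Relative to the median gene of each bin the log2 values were -0.08, -0.85, -1.05 and -0.66, so the Krt5-low cells differed by less than counting error (-0.59 to 0.25) and the other 3 bins were past the rule. With equal weight of the 4 bins the relative log2 was -0.66. Depth also moved with it. Over cells with at least 20000 UMIs Cyp2f2 had 8.39, 2.38 and 8.53 CPM in the 3 libraries, in place of 12.6, 4.35 and 11.2. For Aldh3a1 the relative log2 values in the 4 bins were 0.01, -0.19, -0.29 and -0.36. With equal weight of the bins its value was -0.21. Against genes of like length the bin values of Aldh3a1 were -0.31, -0.50, -0.60 and -0.63. Those of Cbr2 were -0.31, -0.48, -0.61 and -0.63. The part of the Krt5 bins in the differences of these 2 genes was not tested.

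Against wild type, the Cab39l knockout had less Ugt1a6a and less Cyp1b1, and its Cyp2f2, Aldh3a1 and Cbr2 stayed near wild type. Ugt1a6a had 1.97-fold (1.87 to 2.07) fewer CPM (relative -0.64), and Cyp1b1 2.17-fold (1.91 to 2.46) fewer (relative -0.61). The Cyp1b1 interval relative to the median gene, without the pseudocount, was -0.99 to -0.63. Cyp2f2 (0.15), Aldh3a1 (0.25), Cbr2 (0.32), Ephx1 (0.19), Fmo5 (0.17) and Aldh1a1 (-0.09) were not 1.5-fold apart. That is 2 of 8 lower and none higher, beside 7.52% and 7.37% of 10611 genes. The members' median was 0.16, and -0.04 over all genes. Against genes of like length Cyp1b1 had -0.20 and was no longer past the rule, and Fmo5 at 0.59 was, which leaves 1 higher and 1 lower. The shares of all genes by that measure were not counted. Of 14 alternatives, the Ugt1a6a call was lost in 4 (range -0.94 to -0.54) and the Cyp1b1 call in 3 (range -0.92 to -0.20). Ugt1a6a was past the rule in all 4 Krt5 bins, with 2.05-, 1.98-, 1.97- and 1.98-fold fewer CPM. Cyp1b1 was past it in the 3 lower bins (relative -0.63, -0.63 and -0.80) but not at the Krt5-high end (-0.30, -0.81 to 0.01).

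The knockouts can be set against each other without the wild-type library, and their median gene differed by 0.01. Cyp2f2 had 2.58-fold (2.34 to 2.84) fewer CPM in the Lpar6 than in the Cab39l knockout (relative -1.20), and Aldh3a1 1.64-fold (1.60 to 1.68) fewer (-0.72). Cyp1b1 had 1.69-fold (1.503 to 1.90) more (0.60). Cbr2 (-0.43), Aldh1a1 (-0.37) and Ephx1 (-0.25) were lower by less than the rule, and Ugt1a6a (0.01) and Fmo5 (-0.03) were level. Hence 2 of 8 members were lower and 1 higher, where 0.968% and 0.949% of 10328 genes were. Both libraries also enter the comparisons with wild type, so this is not separate evidence. Over the 4 Krt5 bins from low to high, Aldh3a1 had 55.3, 72.7, 99.2 and 146 CPM in the Lpar6 knockout. Its Cab39l knockout levels were 68.1, 102, 137 and 209 CPM, under 1.5-fold apart in each bin. The Krt5-high bin held 6.45% and 21.1% of cells. Cyp2f2 had 3.81, 3.25, 4.92 and 13.3 against 6.01, 7.62, 11.15 and 22.3 CPM, over 1.5-fold apart in each bin. The part of the Krt5 bins in these 2 differences was not tested.

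**Figure D4:**
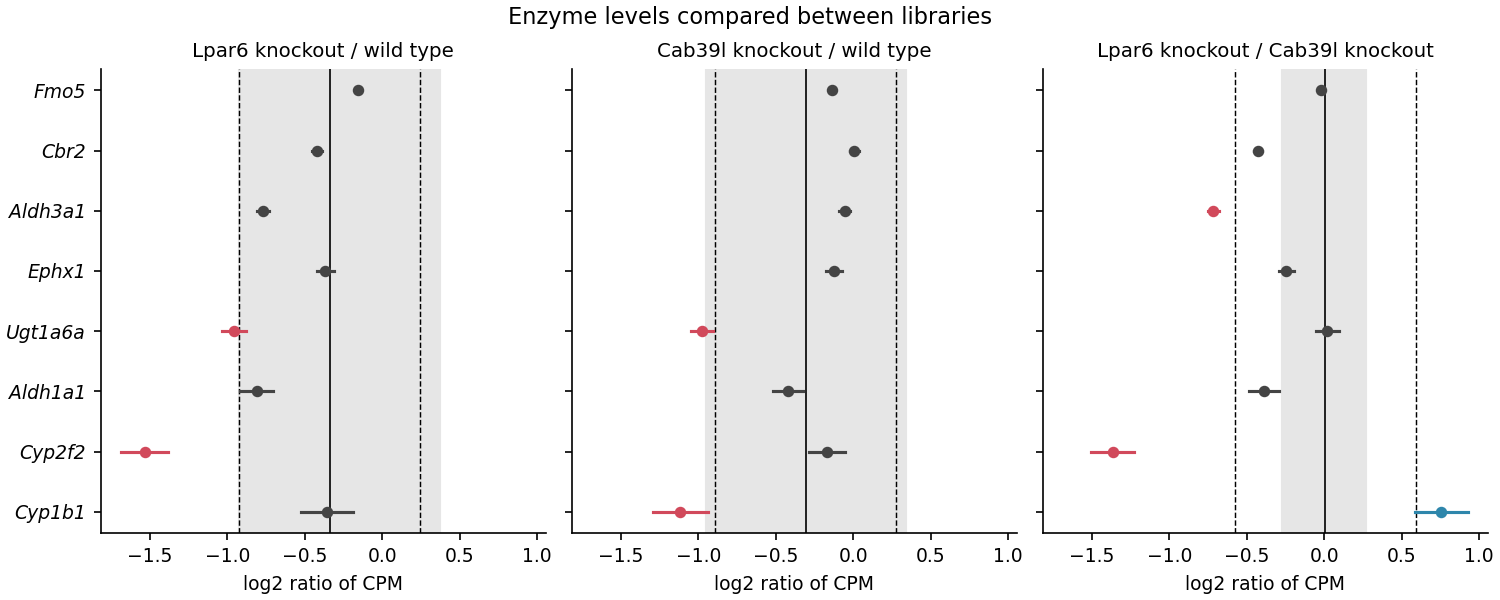
Log2 ratio of CPM (no pseudocount) of the 8 measurable genes between libraries, with exact 95% counting intervals. The solid line is the median gene, dashed lines are 1.5-fold from it, grey spans the 5th to 95th percentile of tested genes, and red and blue mark genes called lower and higher on log2 of (CPM + 1). Cyp2f2 lies outside the grey band in both panels that hold the Lpar6 knockout and inside it for the Cab39l knockout against wild type.

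The background of free RNA was read in barcodes with leukocyte markers (662, 91 and 315), thinned with the urothelial cells to 2000 UMIs. Their median depths were 3737, 3382 and 4359 UMIs before thinning among those deep enough, and 154, 38 and 84 were too shallow. Summed uroplakins reached 12.4, 18.6 and 13.1% of the urothelial level there, and Fmo5 12.2, 21.5 and 15.9%, close to the same share. Fmo5 was then seen in 54.9, 62.3 and 57.6% of leukocyte-marker barcodes against over 99% of urothelial cells. For Aldh3a1 the shares were 2.95, 3.77 and 3.46% against 22.3, 14.8 and 22.5%. In wild type Cyp2f2 was seen in 1.38% (0.556 to 2.82) against 2.32% (1.80 to 2.94) of cells. The intervals overlap, so at this thinned depth its share of urothelial cells is not told apart from background. In the Lpar6 knockout the share was 1.05% of urothelial cells against 0 of 53 barcodes. That allows a background of up to 6.72%, so these few barcodes cannot tell whether the share is above it. In the Cab39l knockout the share was 2.78% (2.35 to 3.27) against 0 of 231, which allows up to 1.58%. Cyp2f2 levels in the wild-type leukocyte-marker barcodes were 5.32 CPM (2.91 to 8.93), against 12.6 (11.8 to 13.4) in urothelial cells. For the Cab39l knockout the levels were 0.691 against 11.2 CPM, while 0 UMIs in the Lpar6 knockout allow up to 13.0 CPM against 4.35. The Cyp1b1 shares overlapped with background in every library, at 1.56% (1.14 to 2.08) against 0.591% (0.122 to 1.72) in wild type, 1.07% against up to 6.72% in the Lpar6 knockout and 0.638% (0.440 to 0.895) against up to 1.58% in the Cab39l knockout. Its levels in the leukocyte-marker barcodes were 1.14 CPM (0.235 to 3.33) in wild type and at most 2.55 CPM in the Cab39l knockout, below those of urothelial cells.

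Cbr2, Aldh1a1, Ephx1, Cyp1b1 and Cyp2f2 were among the members with levels above the uroplakin share in some of the other barcodes. In the leukocyte-marker barcodes of wild type Cyp2f2 was at 42.2% of its urothelial level, where summed uroplakins were at 12.4%. Cbr2 had 124 CPM (86.2 to 172) in the leukocyte-marker barcodes of the Lpar6 knockout, 90.5% of its urothelial level, against 18.9 and 22.2% in wild type and the Cab39l knockout. Aldh1a1 reached 64.3 CPM (51.9 to 78.8) in the leukocyte-marker barcodes of the Cab39l knockout, above its 13.8 CPM in urothelial cells, but 16.0 and 3.54 CPM in those of wild type and the Lpar6 knockout. Fibroblast-marker barcodes were few (12, 48 and 5). Ephx1 had 137 CPM (70.7 to 239) in those of wild type and 118 (70.9 to 184) in those of the Lpar6 knockout, and Cyp1b1 57.0 (18.5 to 133) and 18.6 CPM (3.84 to 54.4, from 3 UMIs). Fibroblast markers were near 0 in the wild-type urothelial cells, at 4.33 CPM for 6 genes together.

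**Figure D5:**
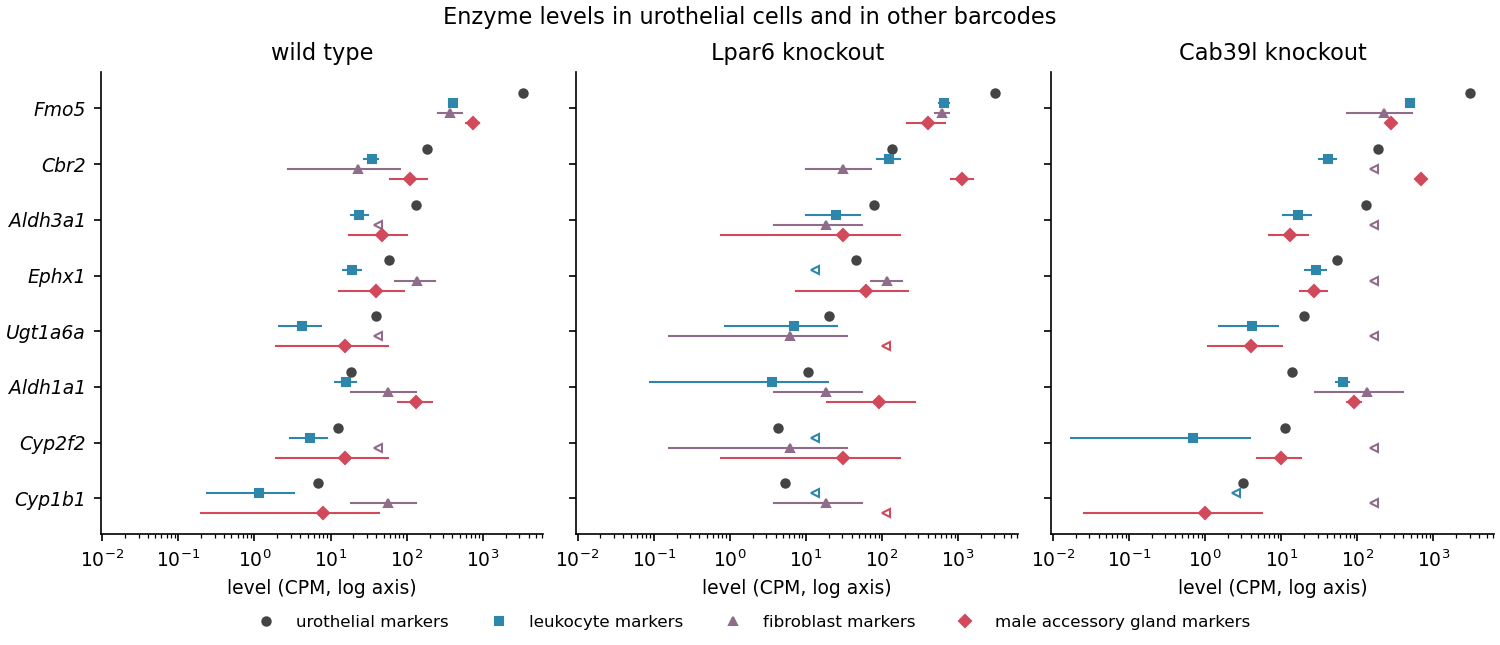
Level (CPM, log axis) of the 8 measurable genes in urothelial cells and in barcodes with leukocyte, fibroblast or male accessory gland markers, by library; lines are exact 95% Poisson intervals and open triangles upper limits at 0 UMIs. Fmo5 is highest in urothelial cells of each library, and Ephx1 is higher in fibroblast-marker barcodes of wild type and the Lpar6 knockout.

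Other genes of the same families, taken from lists by name, were for the most part low or not past the rules. Of 90 other P450 genes 14 reached 2 CPM, led by Cyp4f15, a fatty acid and leukotriene hydroxylase, at 156, 113 and 125 CPM, and Cyp51 of sterol synthesis at 36.0, 33.6 and 28.8. Cyp1a1, the classic target of the aryl hydrocarbon receptor, was the only one past the rule in a knockout, and against genes of like length Cyp3a57 (-0.78) was lower in the Lpar6 knockout as well. Cyp1a1 had 3.96, 9.32 and 3.35 CPM and was 2.35-fold (2.07 to 2.68) higher in the Lpar6 knockout than in wild type (1.40 relative, 1.37 against genes of like length). The list's median was 0.05 for the Lpar6 knockout and 0.10 for the Cab39l knockout. The most abundant of the xenobiotic receptors and their partners were Nfe2l2, the NRF2 gene, at 305, 250.1 and 240.03 CPM and Pparg at 110, 87.5 and 83.3, neither past the rule. Ahr itself, the receptor, had 63.5, 31.1 and 35.0 CPM and a relative log2 of -0.67 in the Lpar6 knockout, but -0.33 against genes of like length.

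None of the 12 measurable aldehyde dehydrogenases besides the members was past the rule in either knockout or along the axis. Against genes of like length Aldh1l1 (0.67) and Aldh7a1 (0.59) were higher in the Lpar6 knockout and Aldh7a1 (0.59) in the Cab39l knockout. The most abundant were Aldh3b2 at 184, 172 and 180 CPM and Aldh6a1 at 87.5, 52.0 and 53.5. Of 12 carbonyl and aldo-keto reductases, 6 were higher and 1 lower in the Lpar6 knockout and 3 were higher in the Cab39l knockout. These transcripts are mostly short, and against genes of like length 2 and 1 were higher, with list medians of 0.15 and 0.02 in place of 0.57 and 0.50. The most abundant were Akr1b3, the aldose reductase, at 2580, 3106 and 2892 CPM (0.61 in the Lpar6 knockout, 0.13 against genes of like length) and Akr1b8 at 201, 287 and 197. Akr1b7, an aldose reductase family member, was the lower gene under both. It had 39.4, 4.76 and 61.7 CPM, 8.27-fold (7.58 to 9.04) fewer in the Lpar6 knockout than in wild type. Fmo2, the other measurable flavin monooxygenase, at 24.99, 19.0 and 19.5 CPM, lay toward the Krt5-low end with Fmo5 but more steeply, at a relative log2 of -1.55, -1.05 and -1.03. Of the 9 electron donors of P450 enzymes only Fdx1 was past the rule (0.72 in the Lpar6 knockout), with Cyb5a at 1417, 1448 and 1454 CPM and Pgrmc1 at 430, 386 and 358. Ugt2b34, the most abundant other glucuronosyltransferase, had 169, 132 and 128 CPM and lay toward the Krt5-high end (0.62, 0.61 and 0.85), and was not past the rule in any comparison. Ugt1a7c followed at 18.3, 10.1 and 10.5 CPM. Ugt1a5 was lower in both knockouts and Ugt1a6b higher in the Lpar6 knockout, 2 genes that share their 3' end with Ugt1a6a. The other epoxide hydrolases Ephx2 (21.6, 16.3 and 19.3 CPM) and Ephx3 (3.03, 1.99 and 2.30) were not past the rule in a knockout, and Ephx3 lay toward the Krt5-low end (-1.07, -0.92 and -0.82). None of 9 retinoid handling genes was past the rule in a knockout, but against genes of like length Rbp4 was lower in both (-0.92 and -0.84). Adh1 (289, 248 and 278 CPM) and Dhrs3 (261, 222 and 298) led that list.

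Over the 12 profiles given by 3 libraries and 4 Krt5 bins, the genes most like each member were found among 4798 genes with a mean of at least 20 CPM. The profiles share libraries and the axis, so the correlations are descriptions. Aldh3a1 was most like Igfbp2 (r = 0.99), Cbr2 (0.99) and Nrn1 (0.98), and Cbr2 most like Aldh3a1, Aqp3 (0.98) and Igfbp2 (0.98). Ugt1a6a was most like Itga6, Map3k1 and Spred2 (0.99 each), and Fmo5 most like Grhl3, Fut9 and Upk2 (0.97, 0.97 and 0.96). Ephx1 was closest to Ahsa1, Pon3 and Lta4h (0.94, 0.93 and 0.93). Among the members, Cyp2f2 went with Cbr2 (0.97), Aldh3a1 (0.95) and Aldh1a1 (0.92), and less with Cyp1b1 (0.20) and Fmo5 (-0.46).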

How the data were processed

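There was 1 library for each group (10x, 3' ends). In the deposited matrices each entry is an unnormalized UMI count. Cell Ranger 3.0.2 and the mm10 build stand in the submitters' processing notes, which give neither the annotation release nor a strand setting. The 10 genes, the gene lists and the rules were chosen with earlier results of these data known. Counts were summed over the urothelial cells of a library (76259491, 127349128 and 157714773 UMIs in wild type, Lpar6 and Cab39l knockout) and scaled to CPM. Folds are log2 of (CPM + 1) ratios minus the median over genes with at least 20 CPM, and genes with at least 2 CPM on the higher side are counted at 1.5-fold between libraries and 2-fold along the axis. Ratios quoted with an interval are of CPM without pseudocount. Intervals are exact at 95% (Poisson, Clopper-Pearson, conditional binomial) and cover counting error only. Cells were thinned to 10000 UMIs at random for shares, Krt5 bins and Cyp2f2 classes, while levels use all counts. Doublets were not called. Leaving out the 6% of cells with the most UMIs was an alternative. Other barcodes needed 500 genes and marker genes at 0.5% of UMIs, above the uroplakins. Transcripts came from GENCODE vM21, which held 30934 of 31053 gene identifiers, 3' ends were compared with blastn 2.17.0, and promoters are RefSeq's. Named genes are all members, the 2 to 4 most abundant genes of each of 9 lists (for flavin monooxygenases Fmo2 alone, the others being under 2 CPM), and the 3 genes most like each member with at least 20 CPM. Other genes named were chosen after their values were seen. Steps were tested on simulated data. Python 3.11.15, numpy 2.4.6, scipy 1.17.1, pandas 2.3.3 and matplotlib 3.10.9 were used. Alternatives covered the cell filters, the median gene, TMM and median-of-ratios factors, pseudocount, transcript length, weight of cells and the ends of the axis. Leaving out cells with a Cyp2f2 UMI was chosen after seeing the data.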

Additional observations from a re-analysis of the deposited data

Results flagged for a closer look

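Barcodes with markers of male accessory glands (Sbp, Pbsn, Svs2, Svs4, Svs5 and Spink1), which enter no comparison above, numbered 33 (wild type), 11 (Lpar6 knockout) and 123 (Cab39l knockout). They held Aldh1a1 and Cbr2 above the urothelial level. Aldh1a1 had 133 CPM (77.7 to 214, 17 UMIs) in those of wild type, 92.0 CPM (19.0 to 269, 3 UMIs) in those of the Lpar6 knockout and 91.2 CPM (73.4 to 112, 91 UMIs) in those of the Cab39l knockout, against 18.5, 10.55 and 13.8 CPM in urothelial cells. Cbr2 had 1134 CPM (799 to 1564, 37 UMIs) in those of the Lpar6 knockout and 676 CPM (626 to 729, 674 UMIs) in those of the Cab39l knockout, against 137 and 184 CPM, but 110 CPM in those of wild type, where the urothelial level was 183 CPM. Within urothelial cells of the Cab39l knockout, the gland markers summed to 258, 531, 244 and 95.3 CPM over the 4 Krt5 bins from low to high, where Cbr2 had 138, 169.6, 195 and 229.6 CPM and Aldh1a1 8.83, 12.2, 15.0 and 18.9 CPM. The part of gland RNA in these levels was not tested.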

How the results depend on the processing

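No paired analysis was possible because each group has 1 library. The number of members at least 1.5-fold apart in the Lpar6 knockout (2) became 1 with a minimum of 20000 UMIs, uroplakins at 0.5%, TMM factors, median-of-ratios factors or equal weight of the 4 bins. It became 4 with no subtraction of the median gene, with the median over every gene with a UMI or with genes of like length, and 0 of 7 without cells holding a Cyp2f2 UMI, where Cyp2f2 itself is not counted. For the Cab39l knockout the 2 became 1 with a minimum of 20000 UMIs, 10% mitochondrial UMIs, uroplakins at 0.5%, TMM factors, median-of-ratios factors or without cells holding a Cyp2f2 UMI. Along the axis the count became 1 in each library with ends of 25% by other basal genes, and 1 in the Lpar6 knockout also with uroplakins at 0.5%, ends of 25% by Krt5 share or Krt5-high from 4 UMIs. The 3 became 2, by loss of the Aldh1a1 call, in wild type with uroplakins at 0.5%, and in the Cab39l knockout with that setting, a minimum of 5000 or 20000 UMIs, without the 6% of cells with the most UMIs or with Krt5-high from 4 UMIs. Shares of all genes were counted under the main settings only. The causes were not tested. No member's called value changed sign. Cyp2b10 and Cyp4b1 had at most 2 UMIs in the urothelial cells of a library, and 1 library per group leaves every difference between libraries without a replicate.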
